A study of Mus musculus with 14 samples.

Results

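Sertoli cells are the somatic nurse cells of the seminiferous tubule, and 8 genes that mark them, Inha, Clu, Cst12, Ctsl, Wt1, Sox9, Gata4 and Amh, were followed in RNA-seq of sorted mouse germ cells. The genes were listed by name as Sertoli cell markers, with earlier results of these data known, and all 8 were found among the 20626 genes of the deposited tables. RNA had been taken from haploid round spermatids (RS) and from spermatocytes at the pachytene and diplotene stages of meiotic prophase (PD). Both came from testes of adult C57BL/6J mice, dissociated with enzymes and sorted after Hoechst and propidium iodide staining. The 4 groups were RS Setd2KO, RS WT, PD Setd2KO and PD WT, with 2 polyadenylated RNA libraries each, and each group also had 1 peak list of H3K36me3, a histone mark placed over transcribed genes by the methyltransferase Setd2. Setd2KO stands for mice with loss of Setd2 and WT for mice with wild-type Setd2. How and in which cells Setd2 was deleted is not given in the labels, so whether Sertoli cells of the Setd2KO mice carried the deletion is not known here. No allele other than Setd2, and no treatment, is named for any group.

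Sertoli cells surround spermatocytes and spermatids, feed them, and hold the blood-testis barrier with their junctions. They answer follicle-stimulating hormone and testosterone, and secrete inhibin, clusterin and protease inhibitors into the tubule. Wt1, Sox9 and Gata4 are transcription factors that set up and keep the Sertoli cell fate, whereas Amh is a hormone of immature Sertoli cells whose production declines at puberty. The sort separated cells by DNA content, and Sertoli cells, which are diploid, were not the cells that either gate aimed at. In sorted bulk samples, a change in the number of cells of a type and a change in RNA per cell cannot be told apart.

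The 8 markers were present at low levels in these libraries. Their summed level was 18.2 and 15.1 FPKM (fragments per kilobase of transcript and per megaread mapped) in RS Setd2KO, 5.75 and 7.48 FPKM in RS WT, 5.57 and 6.90 FPKM in PD Setd2KO and 4.21 and 4.37 FPKM in PD WT. Pachytene markers summed to between 142 and 660 FPKM in the same libraries and spermatid markers to between 119 and 4557 FPKM. Depth, worked back from the FPKM values of single reads, ran from 50.8 to 84.9 megareads a library, and 1 read on a kilobase of transcript was worth 0.0118 to 0.0197 FPKM. Whether the 2 libraries of any group represent separate mice is not stated in the labels, and p-values below therefore measure the spread between libraries, which may be technical.

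Setd2 itself, the targeted gene, was at 12.1 and 8.67 FPKM in RS Setd2KO, 5.24 and 5.58 FPKM in RS WT, 21.0 and 21.4 FPKM in PD Setd2KO and 21.2 and 19.1 FPKM in PD WT. It was not lower in the libraries labelled Setd2KO, and in RS it was higher by 0.81 on the log2 scale (limma, adjusted p = 0.00162). A level summed over the whole gene does not check a deletion of part of it. The peak lists labelled Setd2KO held 3692 H3K36me3 peaks in RS, against 34499 in RS WT, and 1152 peaks in PD, against 44358 in PD WT. Genotype names below are those of the labels for the libraries.

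Of the 8 markers, 4 reached a group mean of 1 FPKM in at least 1 group and entered the test, namely Inha, Clu, Cst12 and Ctsl, and each of these 4 also reached it in a WT group. Wt1, Sox9, Gata4 and Amh stayed under 1 FPKM in all 8 libraries and were described by level. Tests were made with limma on log2(FPKM + 1) across 11452 genes, and a gene was called at a Benjamini-Hochberg adjusted p under 0.05. Fold changes on this scale understate those of low genes.

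In RS, all 4 tested markers rose in Setd2KO relative to WT. Across all 11452 tested genes 42.7% were called in this comparison, 20.9% as higher and 21.8% as lower, and the median log2 change of the tested markers was 0.90 beside 0.02 for all tested genes. The calls for the 4 markers held when any 1 library was left out.

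Inha encodes the alpha subunit of inhibin, the hormone by which Sertoli cells restrain pituitary follicle-stimulating hormone, and lies on chromosome 1 at 75503652 to 75506941 of build mm9. Its level was 3.76 and 3.47 FPKM in RS Setd2KO, against 1.03 and 1.09 FPKM in RS WT. Both RS Setd2KO libraries stood well above both RS WT libraries, and replicates lay close together. The log2 change was 1.16 ± 0.10 (SE; limma, adjusted p = 7.97e-06, 2 libraries a group), and the ratio of mean FPKM was 3.41.

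Clu, on chromosome 14 at 66587320 to 66600385, encodes clusterin, a secreted chaperone that is among the abundant proteins of Sertoli cells. It was the highest of the 8 in RS, with 7.55 and 6.38 FPKM in RS Setd2KO, against 2.71 and 3.70 FPKM in RS WT. The groups did not overlap, and the gap between them exceeded the gap within either. The log2 change was 0.93 ± 0.14 (SE; limma, adjusted p = 0.000478).

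Cst12, on chromosome 2 at 148615097 to 148619173, encodes a cystatin of Sertoli cells, a member of the family of cysteine protease inhibitors. It had 3.69 and 2.72 FPKM in RS Setd2KO, against 1.08 and 1.48 FPKM in RS WT. The 2 RS Setd2KO libraries differed from each other more than the RS WT libraries did, but lay above both. The log2 change was 0.88 ± 0.14 (SE; limma, adjusted p = 0.000584).

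Ctsl, on chromosome 13 at 64463198 to 64471828, encodes cathepsin L, a lysosomal cysteine protease that Sertoli cells also secrete. It had 2.52 and 1.92 FPKM in RS Setd2KO, against 0.718 and 0.880 FPKM in RS WT. Again the groups did not overlap. The log2 change was 0.84 ± 0.12 (SE; limma, adjusted p = 0.000327).

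**Figure D1:**
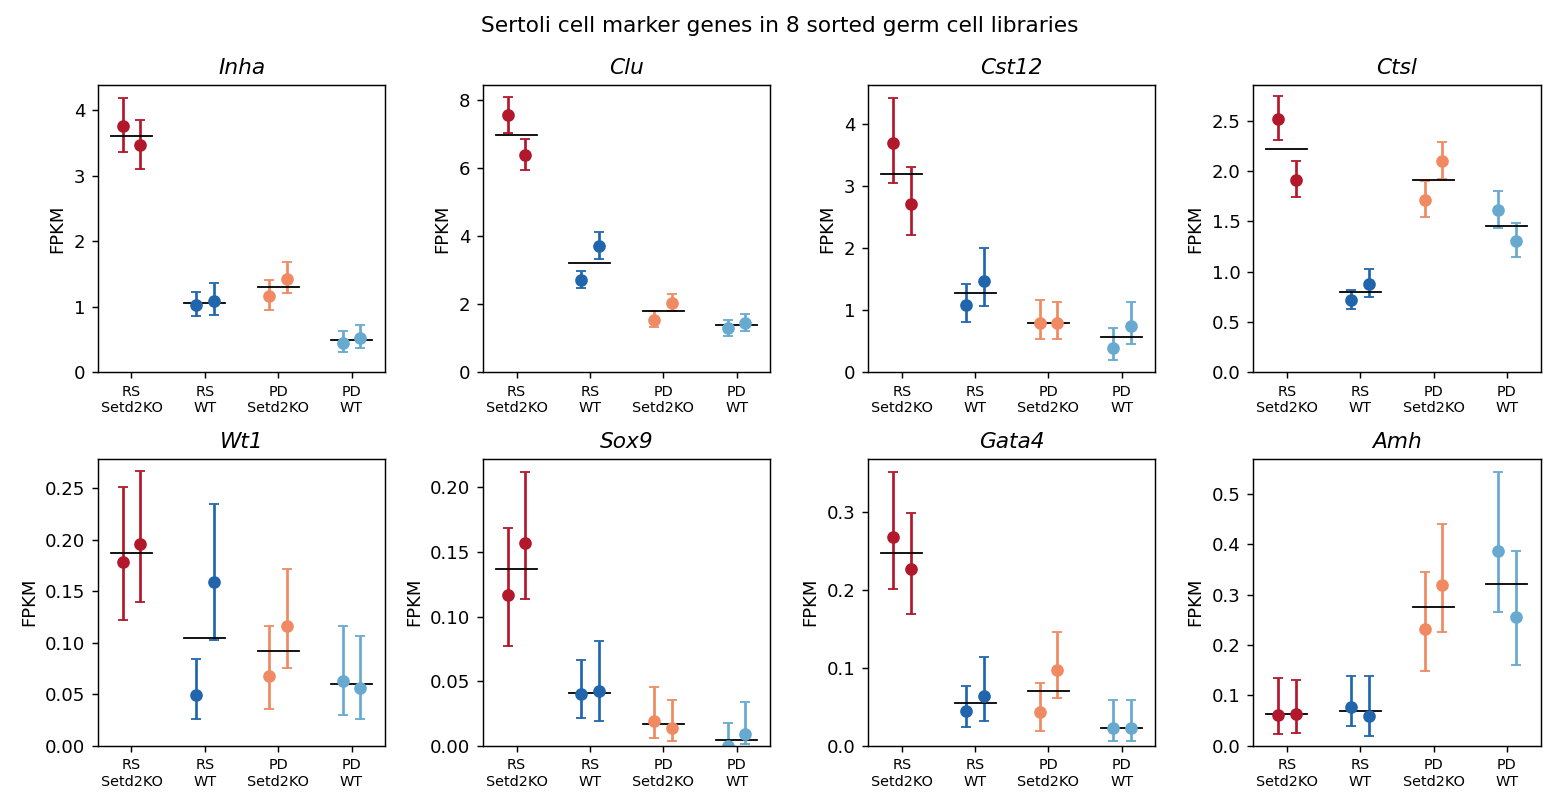
FPKM of each of the 8 Sertoli cell markers (y axis, linear, own scale per gene) in the libraries of the 4 groups (x axis). Points are libraries, vertical bars are exact 95% Poisson intervals of the reads behind each value and cover counting error only, and black lines are group means. RS Setd2KO was the group with the highest mean for 7 genes, and Amh was higher in both PD groups than in both RS groups.

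The 4 low markers rested on few reads, worked back from FPKM. Gata4, a zinc finger transcription factor of the somatic gonad on chromosome 14 at 63817751 to 63864108, was at 0.268 and 0.227 FPKM in RS Setd2KO (53 and 51 reads), against 0.0450 and 0.0635 FPKM in RS WT (13 and 11 reads). Its RS Setd2KO libraries stood apart from the RS WT libraries, with a ratio of means of 4.56, the largest among the 8 markers. Sox9, the testis-determining SRY-box factor, on chromosome 11 at 112643524 to 112649071, was at 0.116 and 0.157 FPKM in RS Setd2KO (28 and 43 reads), against 0.0398 and 0.0427 FPKM in RS WT (14 and 9 reads). These groups did not overlap either.

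Wt1, the Wilms tumour zinc finger factor that maintains Sertoli cells, on chromosome 2 at 104966686 to 105013771, was at 0.178 and 0.196 FPKM in RS Setd2KO (32 and 40 reads), against 0.0495 and 0.159 FPKM in RS WT (13 and 25 reads). The second RS WT library came near the RS Setd2KO libraries, and the counting intervals of the 2 groups overlapped there. Amh, on chromosome 10 at 80267993 to 80270393, was at 0.0621 and 0.0637 FPKM in RS Setd2KO (6 and 7 reads), against 0.0778 and 0.0591 FPKM in RS WT (11 and 5 reads). No difference in Amh between the RS groups was detectable at this depth.

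Over all 8 markers, RS Setd2KO libraries lay above both RS WT libraries for 7, the exception being Amh. The same held for 43.4% of the 20051 genes above 0 in any library, and for 52% of the 8478 genes with a mean of 0.01 to 1 FPKM, while 27.8% and 19% of these genes lay wholly below. Ratios of mean FPKM, RS Setd2KO over RS WT, ran from 0.919 for Amh to 4.56 for Gata4, with a median of 2.64. When all genes were fitted with no filter and a pseudocount of 0.1 FPKM, a setting chosen after seeing the data, Gata4 changed by 1.17 on the log2 scale (limma, adjusted p = 0.00196), and Sox9 by 0.74 (adjusted p = 0.00322). In the same fit Wt1 had 0.54 (adjusted p = 0.125) and Amh -0.05 (adjusted p = 0.88).

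In PD, 1 of the 4 tested markers, Inha, rose in Setd2KO. The median log2 change of all tested genes was 0.19 in this comparison, and 36.1% of tested genes were called, 29.8% as higher and 6.3% as lower. That split was 3409 genes higher and 721 lower on the deposited scale, 1836 and 1642 with upper-quartile scaling, and 1506 and 1787 with quantile normalization. Inha was at 1.16 and 1.43 FPKM in PD Setd2KO, against 0.451 and 0.524 FPKM in PD WT. Both PD Setd2KO libraries were more than the spread above PD WT, with a log2 change of 0.62 ± 0.10 (SE; limma, adjusted p = 0.000999), which is 0.43 above the median of all genes. With quantile normalization the change was 0.25 (adjusted p = 0.074).

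The other 3 tested markers were not called in PD. Clu had 1.53 and 2.04 FPKM in PD Setd2KO, against 1.28 and 1.45 FPKM in PD WT, a log2 change of 0.23 ± 0.14 (SE; limma, adjusted p = 0.231). Cst12 had 0.798 and 0.792 FPKM in PD Setd2KO, against 0.394 and 0.744 FPKM in PD WT, a log2 change of 0.20 ± 0.14 (SE; adjusted p = 0.276). Ctsl had 1.72 and 2.10 FPKM in PD Setd2KO, against 1.61 and 1.31 FPKM in PD WT, a log2 change of 0.24 ± 0.12 (SE; adjusted p = 0.14). For these 3 genes the distance from PD WT was close to the median of all genes, at 0.04, 0.01 and 0.05 above it, and with quantile normalization the sign turned negative.

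The low markers were near the limit of detection in PD. Gata4 was at 0.0427 and 0.0973 FPKM in PD Setd2KO (9 and 23 reads), against 0.0230 and 0.0227 FPKM in PD WT (4 and 4 reads). Sox9 was at 0.0195 and 0.0139 FPKM in PD Setd2KO (5 and 4 reads), whereas in PD WT it was listed at 0 in the first library, where 3 reads would be 0.0141 FPKM, and at 0.00933 FPKM in the second (2 reads). Wt1 was at 0.0679 and 0.116 FPKM in PD Setd2KO, against 0.0632 and 0.0563 FPKM in PD WT. Amh was at 0.233 and 0.320 FPKM in PD Setd2KO, against 0.388 and 0.255 FPKM in PD WT, and was the only marker of the 8 whose PD groups overlapped. PD Setd2KO libraries lay above both PD WT libraries for 7 of the 8 markers, beside 50.6% of all genes and 52.7% of the genes of 0.01 to 1 FPKM, and 11.1% and 8.07% of these genes lay wholly below.

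The Setd2KO effect was larger in RS than in PD for all 4 tested markers. The difference of the 2 effects, RS minus PD, was 0.54 for Inha (limma, adjusted p = 0.0101), 0.70 for Clu (adjusted p = 0.0206), 0.68 for Cst12 (adjusted p = 0.0217) and 0.59 for Ctsl (adjusted p = 0.0206). Among all tested genes 35.1% had such a difference, 7.76% in this direction and 27.3% in the other, and the median was -0.16. These calls sat near the threshold. Without the first PD Setd2KO library or without the second PD WT library 2 of the 4 were called, and without the first RS Setd2KO library or without the first RS WT library 1, Inha, was called. With a pseudocount of 0.1 FPKM 1 of the 4, Ctsl, was called, and with no filter on low values 1, Inha (adjusted p = 0.0304), against 0.0597 for Clu, 0.0713 for Cst12 and 0.0625 for Ctsl.

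**Figure D2:**
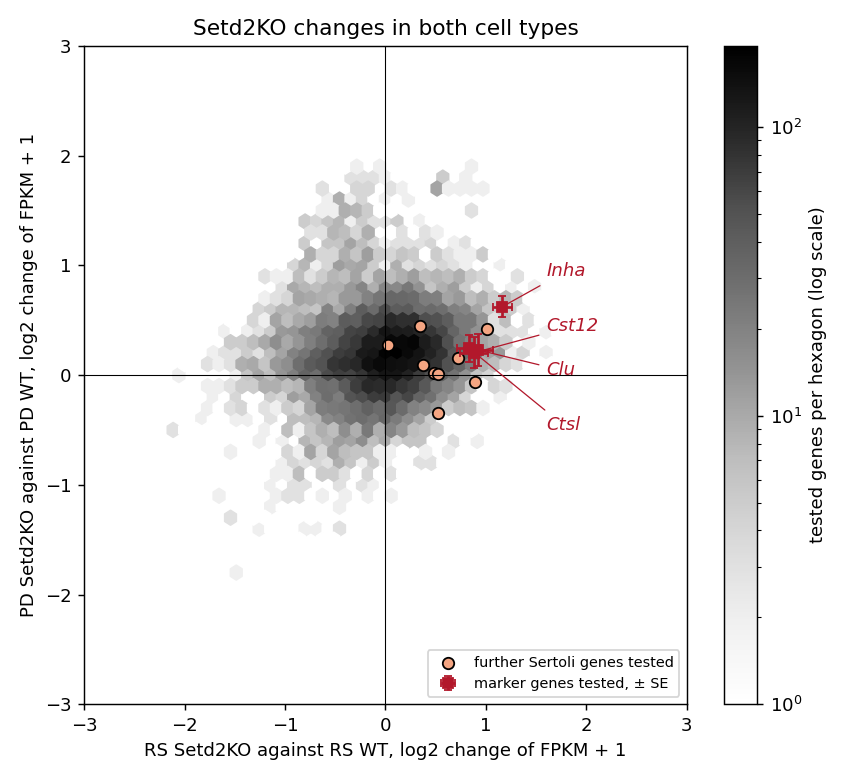
Log2 change of FPKM + 1 in RS Setd2KO against RS WT (x axis) and in PD Setd2KO against PD WT (y axis). Red squares are the 4 tested Sertoli cell markers with SE, orange circles the further Sertoli genes tested, and grey hexagons all 11452 tested genes, of which 2 lie outside the axes. The markers sit at 0.84 to 1.16 on the RS axis and at 0.20 to 0.62 on the PD axis.

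The levels of several markers differed between RS and PD, in both genotypes. Between RS WT and PD WT, where the median log2 change of all genes was -0.21 and 82.7% of tested genes were called (36% higher and 46.7% lower in RS), Inha, Clu and Cst12 were higher in RS WT and Ctsl was lower. Clu was at 2.71 and 3.70 FPKM in RS WT, against 1.28 and 1.45 FPKM in PD WT, a log2 change of 0.82 (limma, adjusted p = 0.000225). Inha was higher by 0.47 (adjusted p = 0.000695) and Cst12 by 0.54 (adjusted p = 0.00376). Ctsl was at 0.718 and 0.880 FPKM in RS WT, against 1.61 and 1.31 FPKM in PD WT, a log2 change of -0.45 (adjusted p = 0.00486). Without the first PD WT library, Cst12 and Ctsl were no longer called (adjusted p = 0.0626 for Cst12 and 0.0527 for Ctsl).

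Amh went with Ctsl. It was at 0.0778 and 0.0591 FPKM in RS WT, against 0.388 and 0.255 FPKM in PD WT, with no overlap, and its log2 change was -1.31 in the fit with no filter and a pseudocount of 0.1 FPKM (limma, adjusted p = 0.000465). In all, 5 of the 8 markers lay wholly above PD WT in RS WT, beside 39.9% of all genes and 47.9% of those of 0.01 to 1 FPKM, and 2 lay wholly below, beside 37.7% and 26.7%. Wt1 was the 1 marker with overlap.

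Between RS Setd2KO and PD Setd2KO the median of all genes was -0.27, and again 82.7% of tested genes were called, 34.2% as higher and 48.5% as lower. Clu had the largest log2 change of the 4 tested markers, with 7.55 and 6.38 FPKM in RS Setd2KO, against 1.53 and 2.04 FPKM in PD Setd2KO, a log2 change of 1.52 (limma, adjusted p = 1.29e-06). Cst12 was higher by 1.22 (adjusted p = 7.22e-06) and Inha by 1.01 (adjusted p = 1.3e-06). Ctsl overlapped between the cell types and was not called, at 0.14 (adjusted p = 0.288), though it was called at 0.36 with upper-quartile scaling (adjusted p = 0.0308) and at 0.41 with quantile normalization (adjusted p = 0.0172). Amh was again lower, at 0.0621 and 0.0637 FPKM in RS Setd2KO, against 0.233 and 0.320 FPKM in PD Setd2KO. In these groups 6 of the 8 markers lay wholly higher in RS Setd2KO, beside 43.6% of all genes and 54.6% of those of 0.01 to 1 FPKM, and 1 wholly lower, beside 40.1% and 26.3%.

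The order of the 4 groups therefore differed between markers. Clu and Cst12 ran RS Setd2KO, RS WT, PD Setd2KO and PD WT from high to low, and the 2 PD groups did not differ beyond their spread. Inha ran RS Setd2KO, PD Setd2KO, RS WT and PD WT, and the gap between PD Setd2KO and RS WT was smaller than the gap between the 2 PD Setd2KO libraries. Ctsl ran RS Setd2KO, PD Setd2KO, PD WT and RS WT, and the first 2 of these overlapped. Amh was highest in PD WT, which overlapped PD Setd2KO, and the RS groups overlapped below them.

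Levels set against Clu within the same library show how far the markers kept a common ratio. Within RS the ratio of Cst12 to Clu was 0.489 and 0.426 in Setd2KO libraries, against 0.398 and 0.399 in WT libraries. It was 0.521 and 0.389 in PD Setd2KO, against 0.307 and 0.512 in PD WT. The 4 RS libraries thus lay between 0.398 and 0.489 and the 4 PD libraries between 0.307 and 0.521. Ctsl did not keep its ratio across cell types: it was 0.335 and 0.300 of Clu in RS Setd2KO, 0.265 and 0.238 in RS WT, 1.12 and 1.03 in PD Setd2KO and 1.25 and 0.899 in PD WT.

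Inha and Gata4 were higher relative to Clu in Setd2KO libraries than in WT libraries of the same cell type. The ratio of Inha to Clu was 0.499 and 0.544 in RS Setd2KO, against 0.380 and 0.295 in RS WT, and 0.757 and 0.700 in PD Setd2KO, against 0.351 and 0.361 in PD WT. The ratio of Gata4 to Clu, resting on few reads, was 0.0355 and 0.0356 in RS Setd2KO, against 0.0166 and 0.0172 in RS WT, and 0.0278 and 0.0478 in PD Setd2KO, against 0.0179 and 0.0156 in PD WT. For both genes Setd2KO and WT libraries did not overlap in either cell type. The same held for Sox9, on few reads, and in RS alone for Cst12 and Ctsl. The share of all genes with such a gap relative to Clu was not worked out. Amh had a ratio of 0.00823 and 0.00998 in RS Setd2KO, 0.0287 and 0.0159 in RS WT, 0.152 and 0.157 in PD Setd2KO and 0.302 and 0.176 in PD WT. Its ratio was thus wholly lower in Setd2KO libraries in both cell types. Amh itself overlapped between Setd2KO and WT in both cell types, while Clu, the divisor, was wholly higher in Setd2KO. In RS the Amh values rested on 6 and 7 reads in Setd2KO and 11 and 5 reads in WT. How much of the markers' RNA came from Sertoli cells carried over in the sort was not tested.

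**Figure D3:**
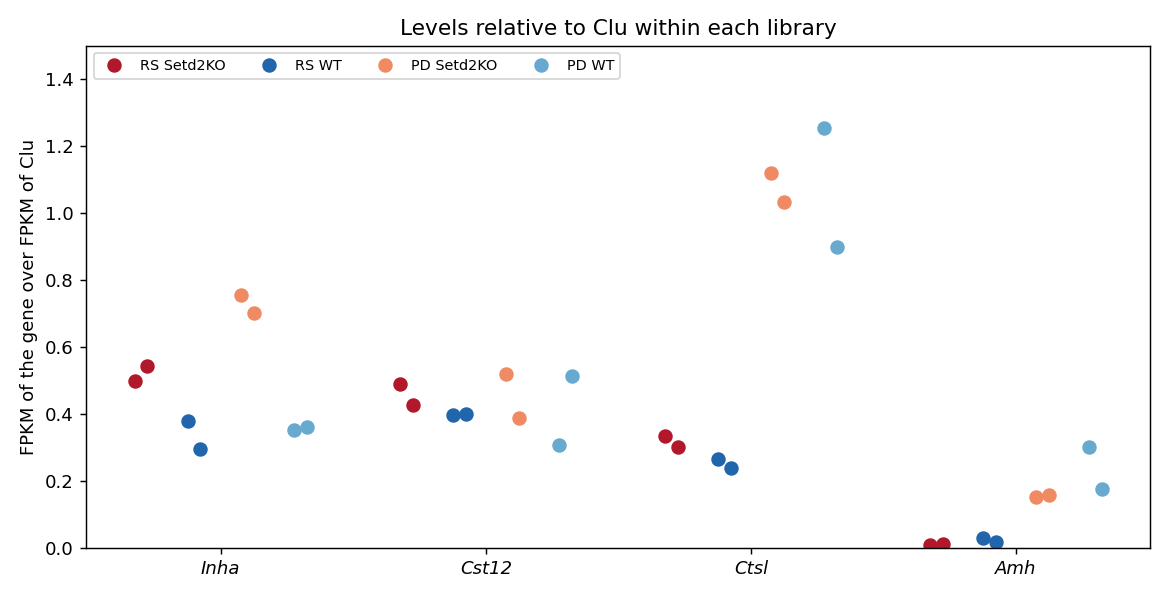
FPKM of Inha, Cst12, Ctsl and Amh divided by FPKM of Clu in the same library (y axis, linear), with 1 point per library coloured by group. Cst12 lies between 0.307 and 0.521 in all 8 libraries, whereas Ctsl lies between 0.238 and 0.335 in RS and between 0.899 and 1.25 in PD.

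Of 25 further Sertoli genes in the tables, 9 were tested, and 7 of these were called higher and 0 lower in RS Setd2KO than in RS WT, with a median log2 change of 0.53. Of all tested genes 20.9% were called higher and 21.8% lower. Of the 6 that reached 1 FPKM in a WT group, 4 were called higher. Vim, the intermediate filament protein vimentin, was at 2.37 and 2.38 FPKM in RS Setd2KO, against 0.456 and 0.922 FPKM in RS WT, a log2 change of 1.01 (limma, adjusted p = 0.00011). Defb19, a beta-defensin of Sertoli cells, was at 5.64 and 6.11 FPKM in RS Setd2KO, against 2.42 and 2.995 FPKM in RS WT, a log2 change of 0.89 (adjusted p = 0.000348). For both genes the RS Setd2KO libraries stood apart from the RS WT libraries.

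The other 5 called were Cst9 (log2 change 0.72), Tsx (0.53), Aard (0.48), the AMH receptor gene Amhr2 (0.37) and Defb36 (0.35). Cdh2, which encodes N-cadherin of the Sertoli-germ cell junctions and had the highest mean of these genes over the 8 libraries, was at 5.97 and 5.57 FPKM in RS Setd2KO, against 4.47 and 3.04 FPKM in RS WT (limma, adjusted p = 0.0531). Its level in PD was higher than in RS, at 11.6 and 11.4 FPKM in PD Setd2KO and 18.8 and 11.8 FPKM in PD WT. Without the first RS WT library, or without the first RS Setd2KO library, 4 of the 9 were called in RS, and Aard was lost also without the second RS Setd2KO library or either PD WT library. In PD 2 of the 9 were called higher, Defb36 (0.45) and Vim (0.42), a share below the 29.8% of all tested genes, and neither was called without the first PD WT library or with quantile normalization. The follicle-stimulating hormone receptor gene Fshr was listed at 0 in 1 library each of PD Setd2KO and PD WT.

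Other somatic markers were also low, and some moved with the Setd2KO label in RS. Peritubular myoid markers summed to 13.3 and 11.8 FPKM in RS Setd2KO, against 5.22 and 6.17 FPKM in RS WT, and 3 of 4 tested were called higher, beside 20.9% of all tested genes. Acta2 and Myh11 entered the test only through their level in RS Setd2KO. Of the 2 myoid markers that reached 1 FPKM in a WT group, 1, Tagln, was called higher. The other, Mylk, was at 2.65 and 2.13 FPKM in RS Setd2KO, against 3.03 and 2.88 FPKM in RS WT. Mylk was thus lower in both RS Setd2KO libraries but was not called (limma, adjusted p = 0.124). Acta2, smooth muscle actin, was at 4.69 and 4.55 FPKM in RS Setd2KO, against 0.137 and 0.704 FPKM in RS WT, a log2 change of 2.01 (limma, adjusted p = 1.14e-05). Without either RS Setd2KO library or the first RS WT library, 2 of the 4 were called, Tagln being lost. Leydig markers summed to 10.6 and 14.9 FPKM in RS Setd2KO, against 9.79 and 5.18 FPKM in RS WT, and 1 of 3 tested, Insl3, was called higher, but not when either PD WT library, the second RS Setd2KO library or the second RS WT library was left out.

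Macrophage markers summed to 5.31 and 3.90 FPKM in RS Setd2KO, against 3.27 and 5.36 FPKM in RS WT, with overlap, and of 2 tested 0 were called higher and 1, Adgre1, lower. Endothelial and erythrocyte markers summed to 4.31 and 4.66 FPKM in RS Setd2KO, against 4.37 and 4.83 FPKM in RS WT. Of 2 tested 0 were called higher and 1, Vwf, lower. Vwf entered the test only through its level in RS WT. For both lists the counts stand beside 20.9% of all tested genes called higher and 21.8% lower in RS. In PD myoid markers summed to 5.91 and 6.55 FPKM in Setd2KO, against 8.04 and 7.77 FPKM in WT. Of the 4 tested there, 1, Mylk, was called lower (log2 change -0.61, limma, adjusted p = 0.00219) and 1, Myh11, higher. The shares of all tested genes were 6.3% and 29.8%. Myh11 was not called higher with upper-quartile scaling or quantile normalization. Leydig markers summed to 5.56 and 7.50 FPKM in PD Setd2KO, against 4.27 and 4.11 FPKM in PD WT. Macrophage markers summed to 2.74 and 2.24 FPKM in PD Setd2KO, against 2.67 and 3.09 FPKM in PD WT, with overlap. Endothelial and erythrocyte markers summed to 1.69 and 1.91 FPKM in PD Setd2KO, against 0.877 and 1.24 FPKM in PD WT, with both Setd2KO libraries higher. None of the 8 macrophage or 9 endothelial and erythrocyte genes was at 0 in any library, while Lhcgr of the Leydig list and Des of the myoid list were each listed at 0 in 1 PD WT library.

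Germ cell markers of the neighbouring stages moved too. Pachytene markers summed to 245 and 211 FPKM in RS Setd2KO, against 142 and 142 FPKM in RS WT, and 4 of 8 were called higher and 1 lower, beside 20.9% and 21.8% of all tested genes. Spermatid markers summed to 1493 and 1545 FPKM in RS Setd2KO, against 4557 and 4392 FPKM in RS WT, and 4 of 8, the protamine and transition protein genes Prm1, Prm2, Tnp1 and Tnp2, were called lower and 0 higher. Spermatogonial markers summed to 6.66 and 6.72 FPKM in RS Setd2KO, against 5.95 and 7.47 FPKM in RS WT, with overlap, and to 12.7 and 18.2 FPKM in PD Setd2KO, against 7.14 and 7.37 FPKM in PD WT. The part of these other cell types and stages in the results for the Sertoli markers was not tested.

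**Figure D4:**
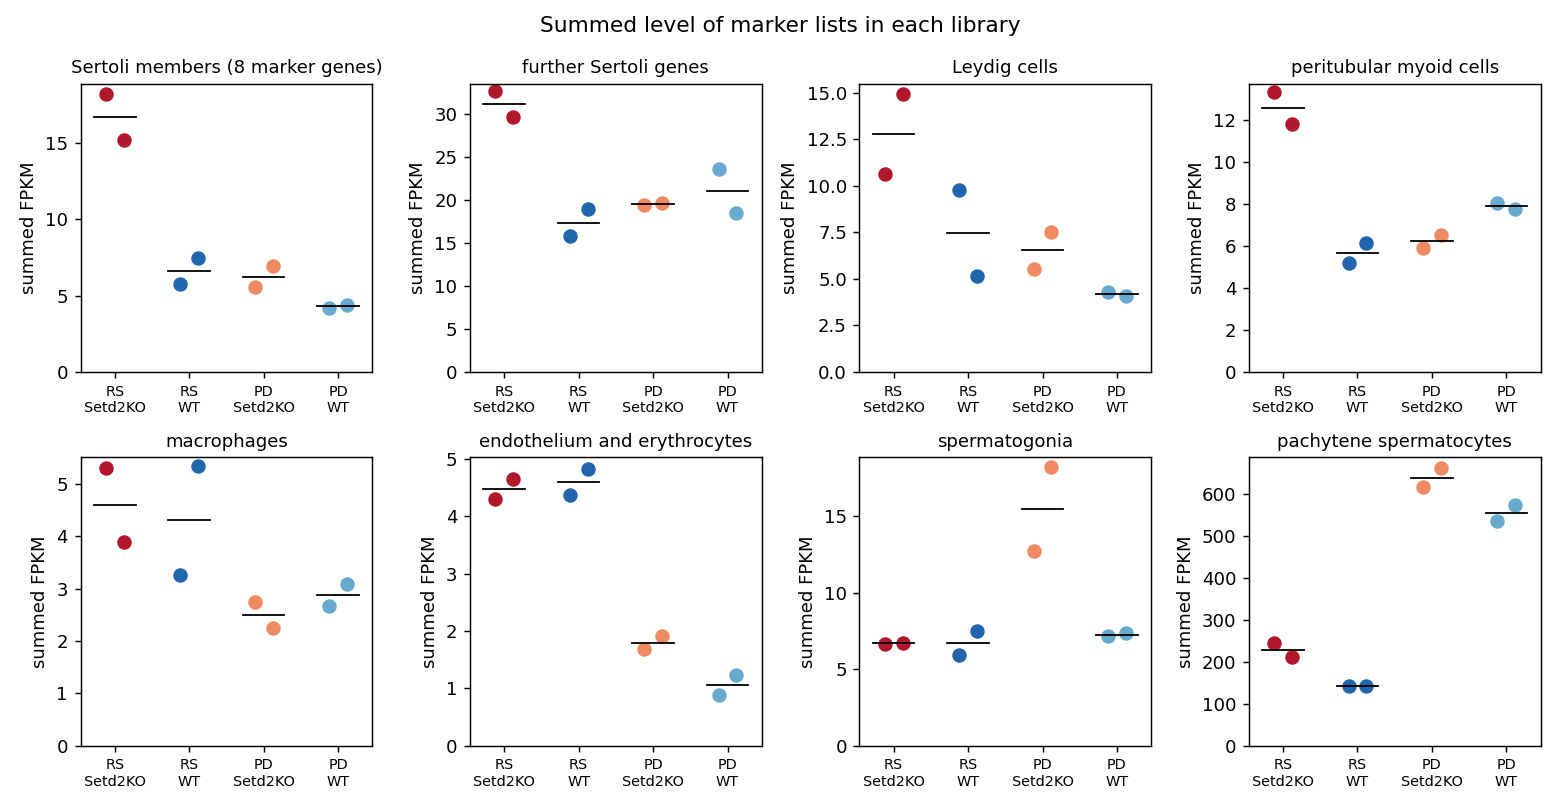
Summed FPKM of 8 marker lists (y axis, linear, own scale per list) in the libraries of the 4 groups (x axis), with points for libraries and black lines for group means. The Sertoli markers, the further Sertoli genes and the myoid, Leydig and pachytene lists were higher in both RS Setd2KO libraries than in both RS WT libraries, whereas the macrophage list and the endothelial and erythrocyte list overlapped between RS groups.

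Among cystatins, Cst12 was set beside its genomic neighbours. Cst12, Cst8, Cst13 and Cst9 lie in this order on chromosome 2 of mm9, and 41.7 kb separate Cst12 from Cst9, a Sertoli cell cystatin also called testatin. Tested genes known only by a clone or model number were passed over in a ranking by pattern. Among the rest, Cst9 had the pattern closest to that of Cst12 over the 8 libraries. The mean absolute difference between their centred log2(FPKM + 1) values was 0.06. Cst9 was at 3.82 and 2.67 FPKM in RS Setd2KO, 1.20 and 1.95 FPKM in RS WT, 0.753 and 0.840 FPKM in PD Setd2KO and 0.456 and 0.789 FPKM in PD WT. It rose in RS Setd2KO by 0.72 on the log2 scale (limma, adjusted p = 0.00463), a call that was lost without the first RS WT library (adjusted p = 0.0646).

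The 2 genes between them went the other way in RS. Cst8, a cystatin-related gene of spermatids and epididymis, was at 57.1 and 67.9 FPKM in RS Setd2KO, against 99.8 and 88.0 FPKM in RS WT, a log2 change of -0.58 (limma, adjusted p = 0.0197). Cst13 was at 16.2 and 18.5 FPKM in RS Setd2KO, against 33.8 and 30.9 FPKM in RS WT, a log2 change of -0.86 (adjusted p = 0.00349). The call for Cst8 was lost without the first RS Setd2KO library and without the first RS WT library. Of 8 tested cystatins, 3 (Cst12, Cst9 and Cst6) were called higher and 3 (Cst8, Cst13 and Cstl1) lower in RS. The shares of all tested genes were 20.9% and 21.8%. In PD 2 (Cst8 and Cstb) were called higher and 0 lower, beside 29.8% and 6.3% of all tested genes. Among the 6 cystatins that reached 1 FPKM in a WT group, 2 were called higher and 3 lower in RS, and 1 higher in PD. Cstb lost its call with quantile normalization (limma, adjusted p = 0.186).

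The promoters of Cst12 and Cst9 are shown because Cst9 ranked as closest in pattern to Cst12 among the genes kept in that ranking. The windows run from 250 bases before to 50 after the start site, on the plus strand, in RefSeq's GRCm38.p6, at chr2:148789115-148789414 for Cst12 and chr2:148834897-148835196 for Cst9. Capitals mark GATA motifs.
Cst12: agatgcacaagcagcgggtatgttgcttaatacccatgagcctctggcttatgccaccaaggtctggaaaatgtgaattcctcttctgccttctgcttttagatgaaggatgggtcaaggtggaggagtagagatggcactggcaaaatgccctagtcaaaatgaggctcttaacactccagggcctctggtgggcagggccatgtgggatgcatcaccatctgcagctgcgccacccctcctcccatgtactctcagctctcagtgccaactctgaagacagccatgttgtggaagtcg
Cst9: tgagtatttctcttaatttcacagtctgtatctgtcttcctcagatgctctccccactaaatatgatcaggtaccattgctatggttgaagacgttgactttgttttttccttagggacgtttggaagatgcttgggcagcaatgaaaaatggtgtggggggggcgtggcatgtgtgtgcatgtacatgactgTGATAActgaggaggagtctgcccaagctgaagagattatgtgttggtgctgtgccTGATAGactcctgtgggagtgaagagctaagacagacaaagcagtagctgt
GATA motifs were searched on both strands as GATAA or GATAG with A or T before it. Cst9 held TGATAA, whose first base was at -57 relative to the start site, and TGATAG, whose first base was at -1, and Cst12 held none. Such a motif was present in 29.8% of the 32851 promoter windows of the same table. Neither promoter held AGGTCA (a nuclear receptor half-site, in 16.3% of windows), AACAAT (a SOX motif, 10.7%) or TGACGTCA (the cyclic AMP response element, 1.79%). In a global alignment with gaps allowed 154 of 300 bases were identical. No other promoter pair was aligned, so whether this is more than unrelated promoters share was not tested.

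By the same measure over 8 libraries and among the same genes, Gsr, Acsbg1 and Arl4c were closest in pattern to Inha (differences of 0.07, 0.07 and 0.09). For Clu they were Rrm2, Mppe1 and Maoa (0.10, 0.10 and 0.11), and for Ctsl Cenpf, Gcfc2 and Utp14b (0.06, 0.08 and 0.09). Myl10 (0.06) and Bcor (0.09) followed Cst9 for Cst12. The measure ignores level: Cenpf, a kinetochore protein gene, was at 24.0 and 20.1 FPKM in RS Setd2KO, against 11.6 and 13.9 FPKM in RS WT. Among the markers, Cst12 was the closest to Clu (0.14), and Ctsl was far from Clu (0.66).

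Among cathepsins, Ctsl was joined by Ctso in RS. Ctso was at 1.46 and 1.42 FPKM in RS Setd2KO, against 0.336 and 0.431 FPKM in RS WT, a log2 change of 0.82 (limma, adjusted p = 6.36e-05), with the groups apart. Ctsd, the aspartic protease cathepsin D, was at 1.22 and 1.08 FPKM in RS Setd2KO, against 0.356 and 0.876 FPKM in RS WT (adjusted p = 0.0501), and Ctsf was not called either (adjusted p = 0.105). Thus 2 of 4 tested cathepsins rose and 0 fell in RS, beside 20.9% and 21.8% of all tested genes. Ctso entered the test only through its level in RS Setd2KO. Of the 3 cathepsins that reached 1 FPKM in a WT group, 1, Ctsl itself, was called higher. With upper-quartile scaling 4 of 5 rose, beside 27.7% of all genes. In PD 0 of 4 were called by limma, and 1, Ctso, had an unadjusted p under 0.05.

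In the pathway of activin, inhibin and AMH, 7 of 12 tested genes, Inha included, were called higher in RS Setd2KO than in RS WT and 0 lower, with a median log2 change of 0.30. Of all tested genes 20.9% were higher and 21.8% lower. Of the 11 pathway genes that reached 1 FPKM in a WT group, 6 were called higher in RS. Acvr2a, an activin receptor that inhibin blocks, was at 8.52 and 7.72 FPKM in RS Setd2KO, against 3.89 and 4.11 FPKM in RS WT, a log2 change of 0.87 (limma, adjusted p = 0.000185). Smad1, a transducer of BMP and AMH signals, was at 4.95 and 5.57 FPKM in RS Setd2KO, against 1.57 and 2.24 FPKM in RS WT, a log2 change of 1.12 (adjusted p = 0.00021). Tgfbr3, the inhibin co-receptor betaglycan, was at 3.31 and 3.55 FPKM in RS Setd2KO, against 2.13 and 2.62 FPKM in RS WT, a log2 change of 0.40 (adjusted p = 0.00812).

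Fstl3, Amhr2 and Smad2 were the others called in RS, with log2 changes of 0.29, 0.37 and 0.32. In PD 6 of 12 were called higher and 0 lower, beside 29.8% and 6.3% of all tested genes, with a median of 0.35 beside 0.19: Inha, Tgfbr3 (0.45), Bmpr1a (0.60), Smad2 (0.62), Smad4 (0.61) and Smad5 (0.56). Acvr1b was the one among the 3 highest genes of the pathway that was called in neither (log2 change 0.13 in RS and 0.12 in PD, with the PD sign negative under both other scalings). With quantile normalization 3 of the 12 were called higher in PD, beside 13.2% of all genes. Without the first RS WT library, Amhr2, Fstl3, Tgfbr3 and Smad2 were no longer called in RS, and Amhr2, Fstl3 and Smad2 also lost the call without the first RS Setd2KO library. Smad2 was not called without any 1 of the 4 RS libraries, and Fstl3 was not called without either PD WT library.

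Of 13 transcription factors of the somatic gonad, Wt1, Sox9 and Gata4 among them, 3 were tested. Gata6, a relative of Gata4, was at 4.597 and 6.08 FPKM in RS Setd2KO, against 1.98 and 1.46 FPKM in RS WT, which is 1.22 higher on the log2 scale (limma, adjusted p = 8.78e-05). In PD it was at 0.925 and 0.532 FPKM in PD Setd2KO, against 0.0673 and 0.139 FPKM in PD WT, a log2 change of 0.64 (adjusted p = 0.0069). It was higher than Gata4 in FPKM in every library. Emx2 and Dmrt1 were not called in RS, while in PD Emx2 fell by 0.83 and Dmrt1 rose by 0.71. Dmrt1 entered the test only through its level in PD Setd2KO, and Emx2 only through its level in PD WT. Of the 2 factors that reached 1 FPKM in a WT group, 1, Gata6, was called higher in PD and 1, Emx2, lower. Among all tested genes 20.9% were called higher and 21.8% lower in RS, and 29.8% and 6.3% in PD. With quantile normalization Gata6 and Dmrt1 were not called in PD, and Gata6 was not called there without the first PD WT library. Of the receptors of clusterin, 2 were tested, and 1, Vldlr, was called higher in RS (0.54, limma, adjusted p = 0.000407). Vldlr entered the test only through its level in RS Setd2KO. Lrp8, at 8.05 and 9.69 FPKM in RS Setd2KO, against 11.3 and 11.3 FPKM in RS WT, was not called (limma, adjusted p = 0.062).

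None of the 8 markers had an H3K36me3 peak over its gene in any of the 4 peak lists. Among autosomal genes at levels between the lowest and highest group means of the 4 tested markers, 65.4% of 3115 had a peak in RS WT and 50.2% of 1838 in PD WT. Among those no longer than the longest of the 4 tested genes the shares were 54.6% of 1041 in RS WT and 39.7% of 718 in PD WT. Wt1, Sox9, Gata4 and Amh lay below these levels, and no share was worked out for genes at theirs. Of the further Sertoli genes 1 of 25, Cdh2, had a peak in RS Setd2KO, in RS WT and in PD WT, and none had one in PD Setd2KO. Among pachytene markers 7 of 8 had one in RS WT and 8 of 8 in PD WT. The 25 further Sertoli genes summed to between 15.8 and 32.7 FPKM a library, and the 8 pachytene markers to between 142 and 660 FPKM. No share of genes with a peak was worked out at the levels of either list or for the Setd2KO lists. The counts of the 2 lists are therefore not matched for level. With 1 list a group these counts had no replicate check.

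The nearest peak to Amh ended 853 bases before the gene in RS WT, at 80261891 to 80267140 of chromosome 10, and 871 bases before it in PD WT, and lay over the neighbouring gene Sf3a2. The nearest to Inha began 13995 bases beyond it in RS WT and 14045 in PD WT, over Stk11ip. Sox9 was the most distant, with 619641 bases to its nearest peak in RS WT and 339384 in PD WT. Cst9, Cst8 and Cst13 had no peak in any list.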

How the data were processed

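The authors deposited RNA-seq values as FPKM, made per the submitters' processing notes with CASAVA, TopHat2, Cufflinks and Cuffdiff on build mm9, versions not given. Per the labels' protocols the RNA was selected with poly A beads and the library kit was directional, but whether counting used strand is not given in the sources used here. The authors deposited H3K36me3 peaks with a score for each peak, 1 list per ChIP sample, made per the submitters' processing notes with CASAVA, Bowtie and bedtools, and the peak names in the files carry MACS. The labels' protocols describe spike-in chromatin, and whether it scaled the lists is not given. Input samples were not analysed here.

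Genes with a group mean of at least 1 FPKM in 1 or more of the 4 groups (11452 of 20626) were fitted as log2(FPKM + 1), pseudocount 1 FPKM, with limma 3.58.1 in R 4.3.3, with an intensity trend and 1 mean per group over all 8 libraries. The fit had 4 residual and 6.92 prior degrees of freedom. Benjamini-Hochberg adjustment ran over all genes tested in a comparison, with a threshold of 0.05. All tests were two-sided. The scripts were tested on simulated data. FPKM are not counts, so no count model was used. Reads and depth (50.8 to 84.9 megareads) were worked back from the steps of low values, within 0.01 of a whole read, to give exact 95% Poisson intervals, which cover counting error only. All other steps used Python 3.11.15. Gene intervals differed between tables for 5.12% of genes, and for none of the 8 markers. A peak was given to a gene when it overlapped its interval by 1 base. Promoter sequences came from RefSeq (GRCm38.p6).

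The markers and the gene lists were chosen with earlier results of these data known. Of 136 listed genes 134 matched the tables, and Rhox5 and Csta did not. Genes were named by rule: the 8 markers and Setd2, up to 3 genes of each list with the highest mean FPKM, every called gene of the further Sertoli, activin, cathepsin and cystatin lists, and the 3 genes closest in pattern to each tested marker. The ranking by pattern passed over genes known only by a clone or model number. Other genes named beside a count were chosen after their values were seen. Alternatives were another pseudocount, no filter, upper-quartile scaling, quantile normalization, a replicate block, only the groups compared, leaving out each library, stricter peaks and, added after seeing the data, no filter with a pseudocount of 0.1 FPKM.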

Additional observations from a re-analysis of the deposited data

Results flagged for a closer look

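With a pseudocount of 1 FPKM, the Setd2KO effect differed between the cell types for each of the 4 tested Sertoli markers by the test of the difference itself. The effect in RS minus the effect in PD, on the log2 scale, was 0.5402 for Inha, 0.6982 for Clu, 0.6774 for Cst12 and 0.5925 for Ctsl (limma, Benjamini-Hochberg adjusted p = 0.0101, 0.0206, 0.0217 and 0.0206 in this order). Among all tested genes 35.1% had such a difference, 7.76% as higher and 27.3% as lower. With no filter on low values Clu, Cst12 and Ctsl were not called (limma, adjusted p = 0.0597, 0.0713 and 0.0625). With no filter and a pseudocount of 0.1 FPKM Inha was not called (limma, adjusted p = 0.229), while Ctsl was (adjusted p = 0.0402). Both RS Setd2KO libraries lay above both RS WT libraries for all 4 genes, as for 43.4% of the genes above 0 in any library.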

How the results depend on the processing

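In RS, 4 of 4 markers stayed called under every alternative, and their log2 changes kept their sign. Leaving out 1 library, the count of called markers stayed between 4 and 4 in RS and between 1 and 1 in PD, was 2 to 4 for RS against PD in WT (2 without PD WT replicate 1), stayed between 3 and 3 for RS against PD in Setd2KO, and was 1 to 4 for the difference of effects, where a lone library was assumed to vary like the other groups. With quantile normalization the PD count fell to 0, and the PD changes of Clu, Cst12 and Ctsl turned to -0.056, -0.14 and -0.049. With no filter 7 of 8 markers were called for RS against PD in Setd2KO, and with no filter and a pseudocount of 0.1 FPKM 6 of 8, since more genes were fitted. Amh was called lower in both fits and the other called markers higher. Of all genes 34.3% were called higher and 33.4% lower in the first fit, and 35.3% and 33.3% in the second. For the difference of effects 1 was called with a pseudocount of 0.1 FPKM and 2 of 8 with that pseudocount and no filter. These calls were higher, beside 6.65% and 6.61% of all genes. The cause of the change in count was not tested. Of the values of single markers under alternatives, 285 kept direction and side of the threshold, 25 lost a call, 3 gained one and 3 changed sign. The count of markers with a WT peak was 0 with all peaks, so the stricter peak settings could only give 0 again.

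Same-numbered libraries did not pair, with correlations of their deviations from the group means between -0.31 and 0.07. With the replicate block 4 markers were called in RS and 1 in PD, and 3894 genes overall in PD, against 4130 without it.

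Over all genes, PD calls numbered 2582 and 2589 without PD Setd2KO replicate 1 or 2, against 4130. RS calls numbered 3092 without RS Setd2KO replicate 1, 2957 without RS WT replicate 1 and 7523 with no filter and a pseudocount of 0.1 FPKM, against 4889. The share of calls that were higher for the difference of effects was 22.1% on the deposited scale, 51.2% with upper-quartile scaling and 52.9% with quantile normalization. Low read numbers limit what can be seen of Wt1, Sox9, Gata4 and Amh.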
